A study of Mus musculus with 8 samples.

Results

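The genes described here are the 3 TGF-β ligands Tgfb1, Tgfb2 and Tgfb3, the receptors Tgfbr1, Tgfbr2 and Tgfbr3, the latent TGF-β binding proteins Ltbp1, Ltbp2 and Ltbp3, and the TGF-β-induced matrix protein gene Tgfbi. They are 10 of the 31053 genes listed for each library, were taken by symbol alone, and all 10 were found in every library. The samples were 8 droplet single-cell RNA libraries from dorsal skin of female BALB/c mice aged 14 to 16 weeks by the labels. The skin of 4 had been injected under the skin with PBMCsec, the secretome of irradiated human peripheral blood mononuclear cells, and that of the other 4 with vehicle. The labels give neither the control solution nor the time point, and they do not say whether each library is 1 mouse, so p-values measure only the spread between these libraries. The study's methods place the injections in scars formed after full-thickness wounds and name other ages and an intradermal route, which could not be matched to single libraries.

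TGF-β is secreted as a latent complex in which the mature cytokine is held by its own propeptide, and latent TGF-β binding proteins tether that complex to the matrix. Once released, the ligand binds the type II receptor, which recruits and phosphorylates the type I receptor, and Smad proteins carry the signal to the nucleus. In skin the pathway is known for driving matrix production by fibroblasts during wound repair and scarring, and for restraining T cells and the growth of keratinocytes.

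Of 26231 barcodes, 6150 passed the filters and 16900 exceeded the limit of 5% mitochondrial counts. The libraries held 14753926 to 37880651 UMIs (counted molecules) in all barcodes, and any pair of libraries shared 0 to 10 barcodes. Clusters were named from marker genes as fibroblast-like cells (FBs, 1482 cells), hair follicle-like cells (HFs, 1474), keratinocyte-like cells (KCs, 921), T cell-like cells (TCs, 746), dendritic cell- and macrophage-like cells (DC/Mac, 519), neutrophil-like cells (118), endothelial-like cells (ECs, 85), melanocyte-like cells (60), smooth muscle cell- and pericyte-like cells (38) and mast cell- and basophil-like cells (27), with 680 cells in 5 unnamed clusters. The members and the other pathway genes took no part in the clustering, so no class rests on them. FBs, HFs, KCs, TCs and DC/Mac had at least 10 cells in every library. Vehicle library 1 had 10 KCs and 10 HFs, vehicle library 2 had 25 FBs and 15 DC/Mac, and sums of so few cells carry a large counting error. One cluster within the TCs was led by Gzma, Ncr1 and Klrd1, genes of cytotoxic and natural killer cells. Levels are the UMIs of a gene in a class and library scaled to a common total (CPM), with TMM factors in FBs, HFs, KCs, TCs and DC/Mac. ECs, the smaller classes and single clusters were scaled by their total alone. Steps between ECs and another class therefore set unlike scalings side by side. Levels are compared between cell classes for a gene but not between genes. For levels across classes, both treatments were used together, and classes were ordered by their mean log2 level.

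Tgfb1 (ENSMUSG00000002603, chr7:25687002-25705077, plus strand on GRCm38) encodes the ligand best known from immune cells. Its level was 221 ± 40.1 CPM in TCs (SD, n = 8), 234 ± 120.1 CPM in ECs (SD, n = 6) and 174 ± 50.1 CPM in DC/Mac (SD, n = 8). It was 55.5 ± 16.4 CPM in KCs, 37.1 ± 16.2 CPM in HFs and 28.7 ± 16.2 CPM in FBs (SD, n = 8 each). The 8 libraries ranged over 168 to 289 CPM in TCs and 10.8 to 62.8 CPM in FBs, so the ranges did not overlap. TCs and ECs could not be ordered, since their log2 levels differed by -0.01 ± 0.41 (SD, n = 6 libraries). The step from DC/Mac to KCs was 1.57 ± 0.39 (SD, n = 8 libraries) on the log2 scale and had the same direction in 8 of 8 libraries (exact two-sided sign-flip permutation test, p = 0.00781, adjusted p = 0.0651 over all 50 neighbouring pairs). Among clusters, the Ctla4- and Icos-expressing TC cluster reached 279 CPM and the unnamed cluster led by Csf2, Il13 and Il1rl1 reached 319 CPM, and the EC cluster led by Ccl21a and Lyve1, genes of lymphatic vessels, reached 294 CPM. The TC cluster led by Gzma and Ncr1 stood at 202 CPM, within the range of 164 to 279 CPM over the TC clusters.

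Tgfb2 (ENSMUSG00000039239, chr1:186622792-186705989, minus strand) had another distribution. It stood at 94.9 ± 29.0 CPM in FBs (SD, n = 8) and 63.9 ± 40.0 CPM in ECs (SD, n = 6), at 9.25 ± 5.399 CPM in KCs and 6.15 ± 6.93 CPM in HFs (SD, n = 8 each). In DC/Mac 2 UMIs were found in 519 cells, and in TCs there were 0 UMIs in 746 cells, which allows a share of cells with a UMI of up to 0.402%. The FBs and ECs differed by 0.90 ± 0.86 (SD, n = 6 libraries) on the log2 scale (exact sign-flip permutation test, p = 0.0938, adjusted p = 0.167), and the step from ECs to KCs was 1.96 ± 0.51 (SD, n = 6 libraries), in 6 of 6 libraries. Within FBs, the level ran from 38.8 CPM in the cluster led by Hmcn2, Angptl1 and Mgp to 334 CPM in the one led by Cpz, Mfap4 and Col1a1. Within ECs the level was 104 CPM in the Lyve1 cluster (35 UMIs in 51 cells) and 9.27 CPM in the cluster led by Fabp4 and Plvap (2 UMIs in 34 cells). At least 10 cells of a cluster were found in 2 libraries for the Lyve1 cluster and 0 for the Plvap cluster. An unnamed cluster led by Ptn and Grem1 held 185 CPM, from 205 UMIs in 156 cells. It had 8 hair follicle markers and 3 keratinocyte markers. The HF level, from 101 UMIs in 1474 cells, leaves it out.

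The promoters of these ligands are shown because their transcripts were spread differently over the cell classes, though ECs and FBs held both. The 120 bases before the RefSeq transcription start (GRCm38.p6) are printed 5′ to 3′ in the direction of the gene, in lower case. Capitals mark GGGCGG or its reverse complement CCGCCC, a GC box, and TATAAA or its reverse complement TTTATA. The Tgfb1 stretch is chr7:25686882-25687001 on the plus strand and the Tgfb2 stretch is chr1:186705990-186706109 on the minus strand.
Tgfb1: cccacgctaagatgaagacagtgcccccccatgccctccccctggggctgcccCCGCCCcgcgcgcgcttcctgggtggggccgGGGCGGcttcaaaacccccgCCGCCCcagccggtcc
Tgfb2: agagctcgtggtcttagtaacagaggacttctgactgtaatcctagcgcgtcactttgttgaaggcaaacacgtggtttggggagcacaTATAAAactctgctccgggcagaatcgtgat
The Tgfb1 stretch held 3 GC boxes and 0 TATAAA, and the Tgfb2 stretch held 0 GC boxes and 1 TATAAA, whose first base lies at -31 from the start. In the same window of 32851 promoters, 26.5% held a GC box and 6.34% a TATAAA on either strand. These matches describe the letters only. The tables used hold no promoter entry for Tgfb3 or Tgfbr3.

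Tgfb3 (ENSMUSG00000021253, chr12:86056745-86079041, minus strand) was sparse, with 302 UMIs in FBs and 26 in ECs. Its level was 44.2 ± 31.6 CPM in ECs (SD, n = 6) and 25.4 ± 6.89 CPM in FBs (SD, n = 8), and those classes could not be ordered (log2 difference 0.20 ± 1.43 (SD, n = 6 libraries)). HFs held 13.3 ± 16.1 CPM (SD, n = 8), TCs, KCs and DC/Mac held means of 4.60, 2.43 and 0.133 CPM, and DC/Mac had 1 UMI in 519 cells. Within ECs it was 77.3 CPM in the Lyve1 cluster and 0 CPM in the Plvap cluster of 34 cells. Of the FB clusters, the one led by Adamts18, Peg3 and Hpgd had 41.5 CPM and the one led by Pi16 and Mrgprg 14.2 CPM.

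**Figure D1:**
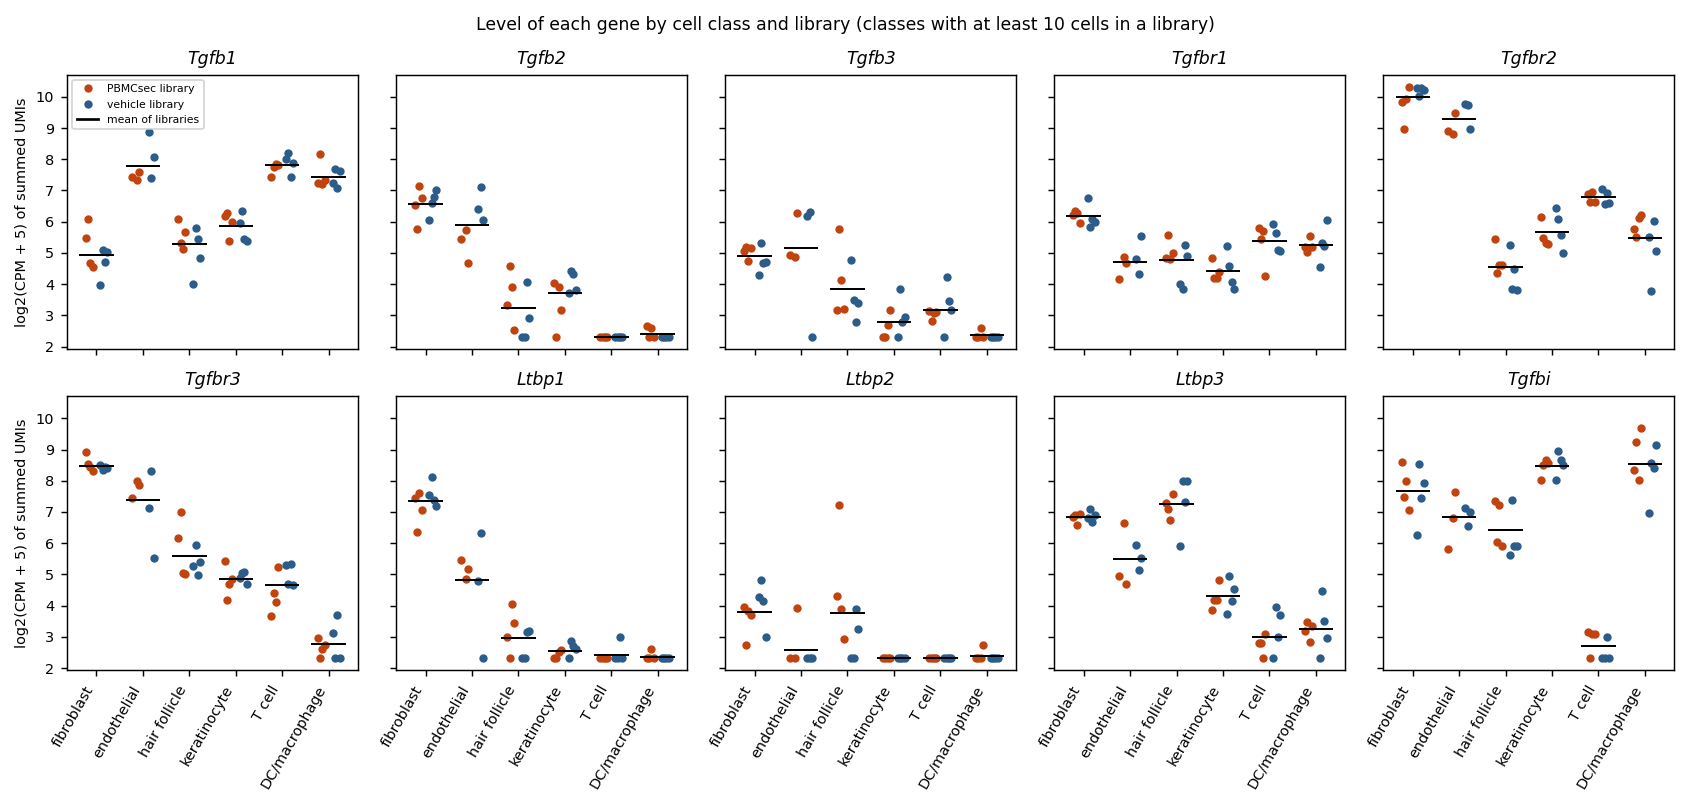
Level of each of the 10 genes (log2 of CPM plus 5, y axis) in 6 cell classes (x axis), with 1 point per library, orange for PBMCsec and blue for vehicle, and a black line at the mean of the libraries. Tgfb1 is high in TCs, ECs and DC/Mac, Tgfb2 and Ltbp1 lie at the floor in TCs and DC/Mac, Tgfbr2 and Tgfbr3 are highest in FBs and ECs, and 1 HF library stands apart for Ltbp2.

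Tgfbr1 (ENSMUSG00000007613, chr4:47353222-47414931, plus strand), the type I receptor kinase, was found in all 6 classes. It measured 69.0 ± 16.5 CPM in FBs, 38.6 ± 13.7 CPM in TCs, 34.9 ± 12.7 CPM in DC/Mac, 24.4 ± 10.7 CPM in HFs and 17.3 ± 7.59 CPM in KCs (SD, n = 8 each), and 22.7 ± 9.999 CPM in ECs (SD, n = 6). FBs exceeded TCs by 0.81 ± 0.45 (SD, n = 8 libraries) on the log2 scale, in 8 of 8 libraries (exact sign-flip permutation test, p = 0.00781, adjusted p = 0.0651), and the 5 lower classes followed in steps of 0.06 to 0.48, each smaller than its SD over libraries. The FB cluster led by Slc26a7, Crabp1 and Wif1 had the highest level of the FB clusters (128 CPM) and the Pi16 cluster the lowest (45.5 CPM). The Crabp1 cluster, of 66 cells, took its name from 3 fibroblast markers, the fewest of the FB clusters and the fewest a name required.

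Tgfbr2 (ENSMUSG00000032440, chr9:116084293-116175360, minus strand), the ligand-binding type II receptor, was high in FBs and ECs. It reached 1043 ± 261 CPM in FBs (SD, n = 8) and 639 ± 192 CPM in ECs (SD, n = 6), against 106 ± 14.8 CPM in TCs, 48.5 ± 19.2 CPM in KCs, 45.0 ± 20.2 CPM in DC/Mac and 20.2 ± 10.6 CPM in HFs (SD, n = 8 each). A Tgfbr2 UMI was found in 93.7% of FBs and in 13.3% of HFs, at median depths of 8720 and 9609 UMIs per cell, and in 59.5% and 2.1% after thinning to 1000 UMIs, over the 1459 FBs and 1428 HFs deep enough (23 and 46 were left out). FBs exceeded ECs by 0.82 ± 0.37 (SD, n = 6 libraries) and ECs exceeded TCs by 2.52 ± 0.52 (SD, n = 6 libraries) on the log2 scale, each in 6 of 6 libraries (exact sign-flip permutation test, p = 0.0312, adjusted p = 0.0822 for both, where 6 libraries allow no smaller p). TCs exceeded KCs by 1.12 ± 0.44 (SD, n = 8 libraries) in 8 of 8 libraries, and KCs and DC/Mac could not be ordered (difference 0.17 ± 1.06 (SD, n = 8 libraries)). The FB clusters spread widely, from 1682 CPM in the Pi16 cluster and 1302 CPM in the Sfrp2 and Fn1 cluster to 653 CPM in the Adamts18 cluster and 241 CPM in the Crabp1 cluster. Within ECs the Lyve1 cluster had 829 CPM and the Plvap cluster 264 CPM.

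Tgfbr3 (ENSMUSG00000029287, chr5:107106570-107289629, minus strand), the co-receptor betaglycan that presents ligand to the type II receptor, stood at 356 ± 51.5 CPM in FBs (SD, n = 8) and 189.8 ± 96.2 CPM in ECs (SD, n = 6). The means were 49.96 CPM in HFs, 24.9 CPM in KCs, 22.4 CPM in TCs and 2.16 CPM in DC/Mac. DC/Mac libraries ranged over 0 to 8.09 CPM and FB libraries over 311 to 475 CPM. FBs exceeded ECs by 1.09 ± 1.02 (SD, n = 6 libraries) in 6 of 6 libraries, and TCs exceeded DC/Mac by 1.91 ± 0.59 (SD, n = 8 libraries) in 8 of 8 (exact sign-flip permutation test, p = 0.00781, adjusted p = 0.0651). The FB clusters ranged from 219 CPM in the Crabp1 cluster to 485 CPM in the Adamts18 cluster.

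Ltbp1 (ENSMUSG00000001870, chr17:75005568-75392512, plus strand), which binds the latent complex and anchors it in the matrix, was highest in FBs among the 6 classes compared. Its level was 165 ± 55.7 CPM in FBs (SD, n = 8) and 31.9 ± 24.7 CPM in ECs (SD, n = 6), and its means were 3.54 CPM in HFs, 0.836 CPM in KCs, 0.368 CPM in TCs and 0.133 CPM in DC/Mac. A UMI was found in 59.4% of FBs and 0.134% of TCs, at median depths of 8720 and 3310 UMIs, and in 15.1% and 0% after the same thinning, over 1459 FBs and 740 TCs. FBs exceeded ECs by 2.65 ± 1.33 (SD, n = 6 libraries) on the log2 scale in 6 of 6 libraries (exact sign-flip permutation test, p = 0.0312, adjusted p = 0.0822). The 3 melanocyte-like libraries with at least 10 cells, which were in no comparison, held 96.5 ± 50.6 CPM (SD, n = 3). They ranged over 39.4 to 136 CPM, overlapping the FB range of 77.6 to 271 CPM. The Cpz and Crabp1 clusters of FBs held 383 and 379 CPM, while the Hmcn2 and Angptl1 cluster held 38.3 CPM.

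Ltbp2 (ENSMUSG00000002020, chr12:84783212-84876532, minus strand), a matrix protein that, unlike the other members of its family, does not bind latent TGF-β, was the sparsest member. It gave 118 UMIs in FBs, 143 in HFs, 1 in ECs, 1 in DC/Mac and 0 in the 746 TCs and 921 KCs, which allows shares of up to 0.402% and 0.326%. FBs had 10.3 ± 6.77 CPM and HFs 23.5 ± 49.7 CPM (SD, n = 8 each), and the HF value rested on PBMCsec library 2 at 146 CPM, where the 7 other libraries lay between 0 and 14.9 CPM. In that library 37 of the 38 Ltbp2 UMIs came from the 11 cells it had in the HF cluster led by Nppc, Scrg1 and Lgr5. Within FBs UMIs of the gene were found in 4 of 7 clusters, with 43.8 CPM in the Crabp1 cluster, 33.6 CPM in the Adamts18 cluster, 33.4 CPM in the Cpz cluster and 2.64 CPM in the Hmcn2 cluster. The Sfrp2, Pi16 and Ccl2 clusters had 0 UMIs of it. The highest level of any cluster, 94.3 CPM, was that of an unnamed cluster of 126 cells led by Ednrb, Col11a1 and Lrrc15, which had 5 fibroblast markers but also Mylk, a smooth muscle and pericyte marker, among its top 10 genes. The unnamed Ptn and Grem1 cluster had 63.1 CPM.

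Ltbp3 (ENSMUSG00000024940, chr19:5740904-5758532, plus strand), another latent complex binder, had its highest mean log2 level in HFs, at 160.3 ± 68.3 CPM against 111 ± 12.6 CPM in FBs (SD, n = 8 each). The difference was 0.39 ± 0.62 (SD, n = 8 libraries) on the log2 scale, in 7 of 8 libraries, and was not resolved (exact sign-flip permutation test, p = 0.125, adjusted p = 0.215). ECs had 45.0 ± 28.1 CPM (SD, n = 6), and the means were 15.5 CPM in KCs, 5.53 CPM in DC/Mac and 3.62 CPM in TCs. KCs exceeded DC/Mac by 1.03 ± 0.45 (SD, n = 8 libraries) in 8 of 8 libraries. The HF clusters were unequal: the Nppc and Lgr5 cluster had 297 CPM and the cluster led by Tagln and Acta2, smooth muscle genes, 267 CPM, while the Sostdc1 cluster and the Krt25 and Krt71 cluster had 44.3 and 40.5 CPM. FB clusters lay between 81.7 and 122 CPM.

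Tgfbi (ENSMUSG00000035493, chr13:56609523-56639562, plus strand), a secreted adhesion protein first cloned as a TGF-β-induced gene, was present in epithelium, myeloid cells and FBs. It measured 423 ± 222 CPM in DC/Mac, 362 ± 78.8 CPM in KCs, 222 ± 108 CPM in FBs and 92.0 ± 52.6 CPM in HFs (SD, n = 8 each), 118 ± 48.5 CPM in ECs (SD, n = 6) and 1.74 ± 1.88 CPM in TCs (SD, n = 8). DC/Mac and KCs could not be ordered (log2 difference 0.06 ± 0.75 (SD, n = 8 libraries)). HFs exceeded TCs by 3.72 ± 0.74 (SD, n = 8 libraries) in 8 of 8 libraries (exact sign-flip permutation test, p = 0.00781, adjusted p = 0.0651). The 4 neutrophil libraries with at least 10 cells ranged over 127 to 905 CPM. Clusters within a class were far apart. In DC/Mac the cluster led by C1qa, C1qb and C1qc had 984 CPM, the Cd209a and Mgl2 cluster 321 CPM and the cluster led by Cd207, which encodes langerin, 2.04 CPM. In FBs the Cpz cluster had 1166 CPM, the Hmcn2 cluster 432 CPM, the Pi16 cluster 17.6 CPM and the Crabp1 cluster 0 CPM. In KCs it ran from 581 CPM in the Krt14 cluster to 211 CPM in the Krt1 and Krt10 cluster. In HFs the Sostdc1 cluster had 235 CPM and the Nppc and Lgr5 cluster 105 CPM. The HF clusters led by Krt25, by Tagln and by Pthlh had 4.35, 3.08 and 2.15 CPM. The unnamed Ptn and Grem1 cluster had 422 CPM.

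In the small classes, whose cells were summed over libraries and carry no error here, Tgfb1 stood at 234 CPM in the mast cell- and basophil-like cells and 157 CPM in the neutrophil-like cells. The smooth muscle cell- and pericyte-like cells had 166 CPM of Tgfbr3, 55.2 CPM of Tgfb3 and 0 UMIs of Tgfbi and Ltbp2. The melanocyte-like cells had 119.9 CPM of Tgfbr3, 87.7 CPM of Ltbp3 and 0 UMIs of Ltbp2. The unnamed Col11a1 and Lrrc15 cluster had 299.9 CPM of Tgfbr2, 259.7 CPM of Tgfbr3 and 40.3 CPM of Tgfb3, and the unnamed cluster led by Cst6 and Krt79 had at most 21.6 CPM of any member, that of Ltbp3.

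**Figure D2:**
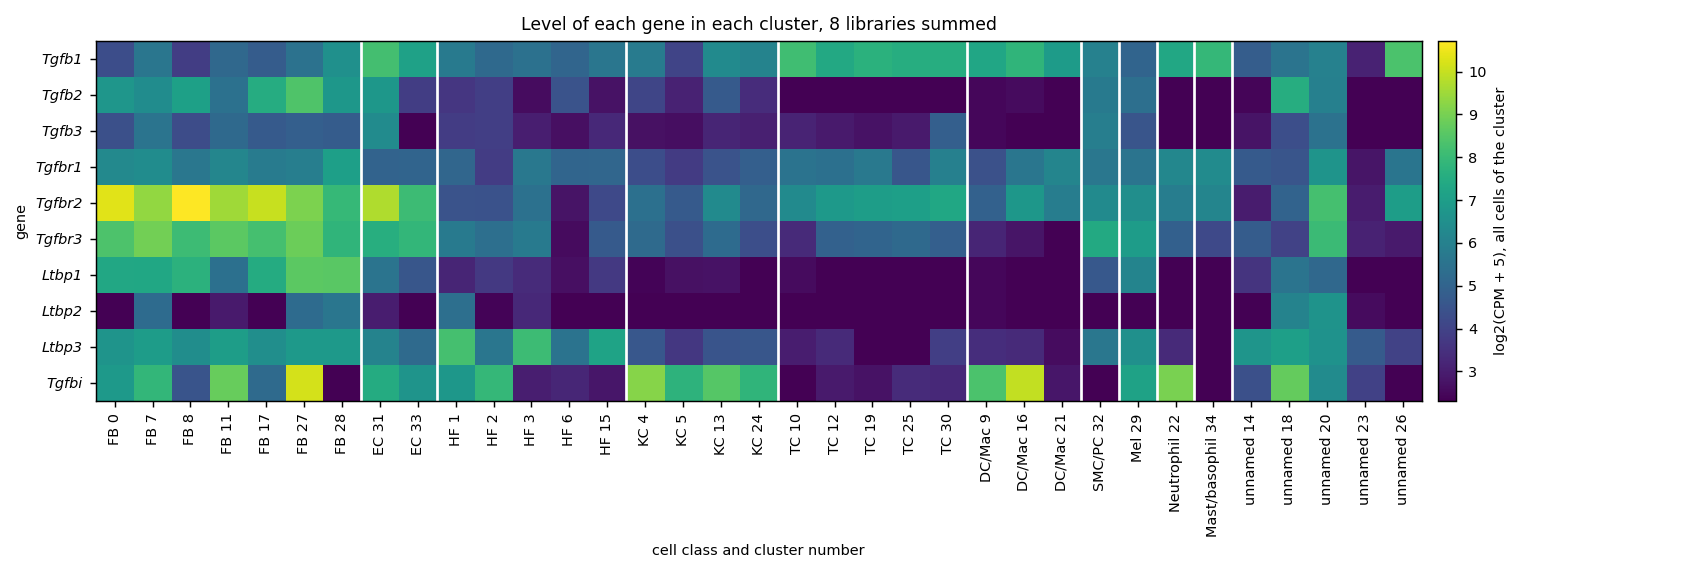
Colour gives the level of each gene (rows, log2 of CPM plus 5) in each of the 35 clusters (columns, by class and cluster number), with the UMIs of the 8 libraries summed, so there is no error here. Tgfbr2 is brightest in FB clusters 8 (Pi16) and 0 (Sfrp2), Tgfbi in FB cluster 27 (Cpz) and DC/Mac cluster 16 (C1qa), and Ltbp2 is dark in every TC and KC cluster.

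Of the 50 neighbouring class pairs, 0 passed an adjusted p of 0.05 and the smallest adjusted p was 0.0651. Over 8 libraries no exact p can be under 0.00781, which 6 pairs reached. With ECs left out and all other cells kept, 15 of 40 pairs passed. Without the 5% of cells with the highest doublet score, 16 of 40 pairs passed, when ECs had at least 10 cells in too few libraries to be compared. The order of the classes is given by levels and their spread. With at least 20 cells required in a library, ECs dropped out, FBs led Tgfb3, HFs led Ltbp2, and KCs led Tgfbi ahead of DC/Mac.

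By the pattern of log2 CPM over 54 sums of a class in a library (9 classes, 9315 genes), the genes most like each member were these, as a description in which sums of a library share its depth. Tgfb1 was most like Ptpn18 (r = 0.876), Arpc3 (r = 0.867) and Gmfg (r = 0.849), Tgfb2 like Loxl2 (r = 0.883), Prss23 (r = 0.883) and Rhobtb3 (r = 0.878), and Tgfb3 like Tgfb1i1 (r = 0.835), Kdelc2 (r = 0.821) and Tshz2 (r = 0.803). Among receptors, Tgfbr1 was most like Cep170 (r = 0.680), Rc3h2 (r = 0.662) and Ap3s1 (r = 0.660), Tgfbr2 like Ly6c1 (r = 0.881), Lrrn4cl (r = 0.862) and Zfpm2 (r = 0.860), and Tgfbr3 like Itih5 (r = 0.885), Dpysl3 (r = 0.865) and Hspg2 (r = 0.864). Ltbp1 was most like Fkbp14 (r = 0.935), Grb10 (r = 0.924) and Reck (r = 0.922), Ltbp2 like Pdgfc (r = 0.757), Irx1 (r = 0.710) and Krt8 (r = 0.676), Ltbp3 like Vangl1 (r = 0.890), Ctsf (r = 0.886) and Cald1 (r = 0.872), and Tgfbi like Sirpa (r = 0.785), Rtn4 (r = 0.773) and Lamp2 (r = 0.737). The likeness was weakest for Tgfbr1.

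The labels give 1 contrast, PBMCsec against vehicle, which asks whether the secretome changed the level of these genes in a cell class. In FBs, where all 10 members passed the filter on low counts, none was called. The FB sums held 615235 to 4463621 UMIs in PBMCsec libraries and 178569 to 2619394 in vehicle libraries. By edgeR's quasi-likelihood test with Benjamini-Hochberg adjustment over 9336 genes, 0 of 10 members had an adjusted p under 0.05 (0% of all genes), 0 of 10 an unadjusted p under 0.05 (1.96% of all genes), and 0 of 10 had groups of libraries that did not overlap (1.56% of all genes). The median log2 fold change of the 10 was -0.02, against -0.001 over all genes tested.

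In FBs, Tgfb1 measured 39.2, 62.8, 20.4 and 18.2 CPM in PBMCsec libraries 1 to 4 and 10.8, 28.9, 21.1 and 27.9 CPM in vehicle libraries 1 to 4. PBMCsec libraries 1 and 2 stood above all vehicle libraries and libraries 3 and 4 among them. The means were 35.1 ± 20.7 CPM after PBMCsec and 22.2 ± 8.34 CPM after vehicle (SD, n = 4 each), with a log2 fold change of 0.53 ± 0.41 (SE; edgeR, p = 0.222, adjusted p = 1; exact permutation p = 0.371). With libraries 3 and 4 of each group alone, its sign turned (-0.30). With 1 library left out at a time it ranged between 0.18 (leaving out PBMCsec library 2) and 0.76 (leaving out PBMCsec library 3). Tgfb2 measured 88.4, 49.5, 135 and 103 CPM in PBMCsec libraries 1 to 4 and 61.2, 92.3, 106 and 124 CPM in vehicle libraries 1 to 4. The lowest and the highest of the 8 were both PBMCsec libraries, and the log2 fold change was -0.04 ± 0.29 (SE), ranging between -0.27 (leaving out PBMCsec library 3) and 0.14 (leaving out PBMCsec library 2). Tgfb3 measured 28.7, 31.4, 21.7 and 30.7 CPM in PBMCsec libraries 1 to 4 and 14.4, 34.6, 20.7 and 21.3 CPM in vehicle libraries 1 to 4. All PBMCsec libraries lay above 3 of the vehicle libraries, and vehicle library 2 was the highest of all 8. Its log2 fold change was 0.36 ± 0.27 (SE; edgeR, p = 0.207, adjusted p = 1; exact permutation p = 0.314).

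**Figure D3:**
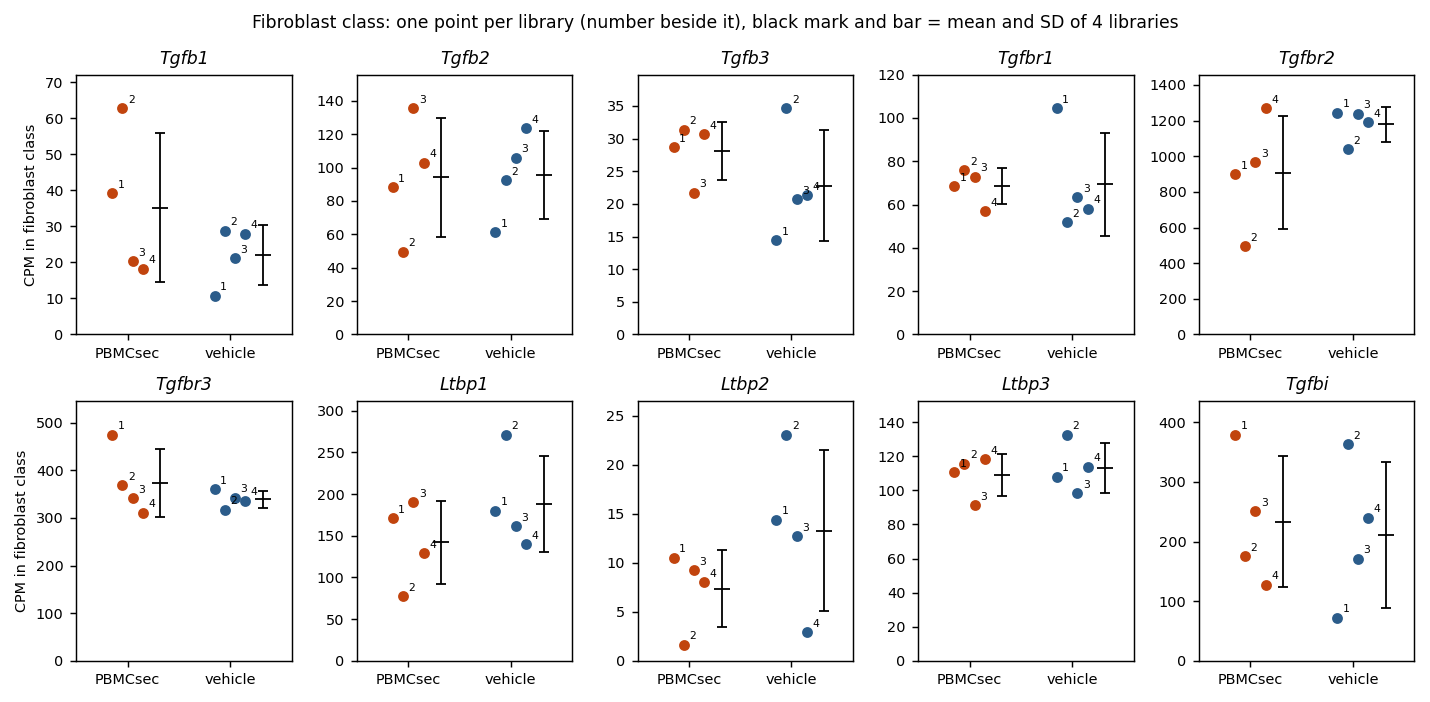
CPM of each gene in the FBs of each library (y axis from 0), with the library number beside each point, orange for PBMCsec and blue for vehicle, and the mean with its SD over 4 libraries in black. The groups overlap in all 10 genes, and PBMCsec library 2 is lowest for Tgfb2, Tgfbr2, Ltbp1 and Ltbp2 and highest for Tgfb1.

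Among the receptors, Tgfbr2 measured 898, 495, 966 and 1268 CPM in PBMCsec libraries 1 to 4 and 1245, 1039, 1238 and 1191 CPM in vehicle libraries 1 to 4 in FBs. PBMCsec libraries 1 to 3 stood below all vehicle libraries, and PBMCsec library 4 was the highest of the 8. The means were 907 ± 318 CPM after PBMCsec and 1178 ± 96.1 CPM after vehicle (SD, n = 4 each), and the log2 fold change was -0.38 ± 0.26 (SE), with the smallest p of the members in FBs (edgeR, p = 0.161, adjusted p = 1; exact permutation p = 0.143). It ranged between -0.57 (leaving out PBMCsec library 4) and -0.17 (leaving out PBMCsec library 2), and PBMCsec library 2 had 69 FBs. Tgfbr1 measured 68.5, 76.0, 72.8 and 57.0 CPM in PBMCsec libraries 1 to 4 and 104, 51.9, 63.3 and 58.1 CPM in vehicle libraries 1 to 4, a log2 fold change of 0.01 ± 0.23 (SE), with vehicle library 1, of 31 FBs, the highest, and its fold change ranged between -0.086 (leaving out vehicle library 4) and 0.21 (leaving out vehicle library 1). Its means were 68.5 ± 8.32 CPM after PBMCsec and 69.4 ± 23.8 CPM after vehicle (SD, n = 4 each), in the other direction. Tgfbr3 measured 475, 368, 341 and 311 CPM in PBMCsec libraries 1 to 4 and 359.9, 317, 342 and 336 CPM in vehicle libraries 1 to 4, a log2 fold change of 0.14 ± 0.21 (SE), with PBMCsec library 1 the highest and PBMCsec library 4 the lowest. That fold change ranged between 0.001 (leaving out PBMCsec library 1) and 0.23 (leaving out PBMCsec library 4).

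The 3 Ltbp genes had log2 fold changes below 0 in FBs, none of them called. Ltbp1 measured 171, 77.6, 190.1 and 129 CPM in PBMCsec libraries 1 to 4 and 179.9, 271, 161 and 139.8 CPM in vehicle libraries 1 to 4, a log2 fold change of -0.35 ± 0.28 (SE; edgeR, p = 0.24; exact permutation p = 0.314). Vehicle library 2 was the highest and PBMCsec library 2 the lowest, and the other 6 lay between 129 and 190.1 CPM. The fold change ranged between -0.52 (leaving out PBMCsec library 3) and -0.14 (leaving out vehicle library 2), and was -0.15 without PBMCsec library 2. Ltbp2 measured 10.5, 1.65, 9.27 and 8.03 CPM in PBMCsec libraries 1 to 4 and 14.4, 23.1, 12.7 and 2.94 CPM in vehicle libraries 1 to 4. Vehicle libraries 1 to 3 were the highest, and vehicle library 4 lay below 3 of the PBMCsec libraries. The means were 7.37 ± 3.95 CPM after PBMCsec and 13.3 ± 8.26 CPM after vehicle (SD, n = 4 each), and the log2 fold change was -0.33 ± 0.51 (SE), on 118 UMIs in all, and ranged between -0.84 (leaving out vehicle library 4) and -0.068 (leaving out vehicle library 3). Ltbp3 measured 111, 116, 91.3 and 118 CPM in PBMCsec libraries 1 to 4 and 108, 133, 98.2 and 114 CPM in vehicle libraries 1 to 4, with a log2 fold change of -0.04 ± 0.20, whose SE was the smallest of the members, ranging between -0.11 (leaving out vehicle library 3) and 0.049 (leaving out PBMCsec library 3). Tgfbi measured 379, 175, 251 and 128 CPM in PBMCsec libraries 1 to 4 and 72.0, 364, 171 and 239.8 CPM in vehicle libraries 1 to 4. Vehicle library 1 was the lowest of the 8 and PBMCsec library 1 the highest, and the log2 fold change was 0.17 ± 0.46 (SE), ranging between -0.16 (leaving out PBMCsec library 1) and 0.49 (leaving out vehicle library 2).

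In the other classes the members that passed the filter were likewise not called. Tgfb1, Tgfbr1 and Tgfbr2 were tested in TCs, with 0 of 3 called by edgeR (0% of all genes), 0 of 3 at an unadjusted p under 0.05 (2.92%) and 0 of 3 with groups apart (2.15%). In TCs, first in its order of classes, Tgfb1 measured 169, 212, 228 and 223 CPM in PBMCsec libraries 1 to 4 and 251, 289, 168 and 229 CPM in vehicle libraries 1 to 4. The log2 fold change was -0.18 ± 0.22 (SE; edgeR, p = 0.409; exact permutation p = 0.343), and the groups overlapped. It ranged between -0.31 (leaving out vehicle library 3) and -0.051 (leaving out vehicle library 2), and was -0.082 without PBMCsec library 1. With cells pooled over libraries, the largest TC cluster was the Ctla4 and Icos cluster after PBMCsec (33%) and a Cd4 and Cd5 cluster after vehicle (36.1%). In FBs, DC/Mac and KCs the same cluster was the largest in both groups. In DC/Mac 0 of 4 members were called (0.0358% of all genes), 0 of 4 had an unadjusted p under 0.05 (4.34%) and 0 of 4 had groups apart (2.66%). Tgfbi in DC/Mac measured 323, 599.6, 253 and 819 CPM in PBMCsec libraries 1 to 4 and 121, 372, 338 and 555 CPM in vehicle libraries 1 to 4, a log2 fold change of 0.52 ± 0.49 (SE; edgeR, p = 0.322; exact permutation p = 0.429). It ranged between 0.16 (leaving out PBMCsec library 4) and 0.87 (leaving out vehicle library 4), and was 0.25 without vehicle library 1.

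In KCs 0 of 7 members were called (0% of all genes), with 0 of 7 at an unadjusted p under 0.05 (0.995%) and 0 of 7 with groups apart (1.27%). Their log2 fold changes lay between -0.59 for Tgfb2 and 0.35 for Tgfbr1, whose means went the other way (16.5 ± 4.86 CPM after PBMCsec and 18.1 ± 10.4 CPM after vehicle (SD, n = 4 each)). In HFs 0 of 7 members were called (0% of all genes), with 0 of 7 at an unadjusted p under 0.05 (2.26%) and 0 of 7 with groups apart (1.9%). Ltbp3 measured 151, 130.5, 101 and 188 CPM in PBMCsec libraries 1 to 4 and 55.5, 252, 155 and 249.6 CPM in vehicle libraries 1 to 4 there, a log2 fold change of -0.39 ± 0.34 (SE; edgeR, p = 0.264; exact permutation p = 0.8286). It ranged between -0.60 (leaving out vehicle library 1) and -0.20 (leaving out vehicle library 4), and was -0.23 without vehicle library 2 and -0.25 without PBMCsec library 3. The lowest library, vehicle 1, had 10 HFs. With cells pooled over libraries, the largest HF cluster was the Sostdc1 cluster after PBMCsec (28.9%) and the Nppc and Lgr5 cluster after vehicle (26.7%). Vehicle library 3 held 555 of the vehicle HFs, so it weighed most in the vehicle share. The part of these shares in the fold change was not tested. Tgfbr2 in HFs had the smallest p of all member tests (0.75 ± 0.39 log2, SE; edgeR, p = 0.0776, adjusted p = 1; exact permutation p = 0.343). The log2 fold change of Ltbp2 in HFs was 2.01 ± 1.38 (SE), and its PBMCsec values were 14.9, 146, 9.92 and 2.70 CPM in libraries 1 to 4.

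**Figure D4:**
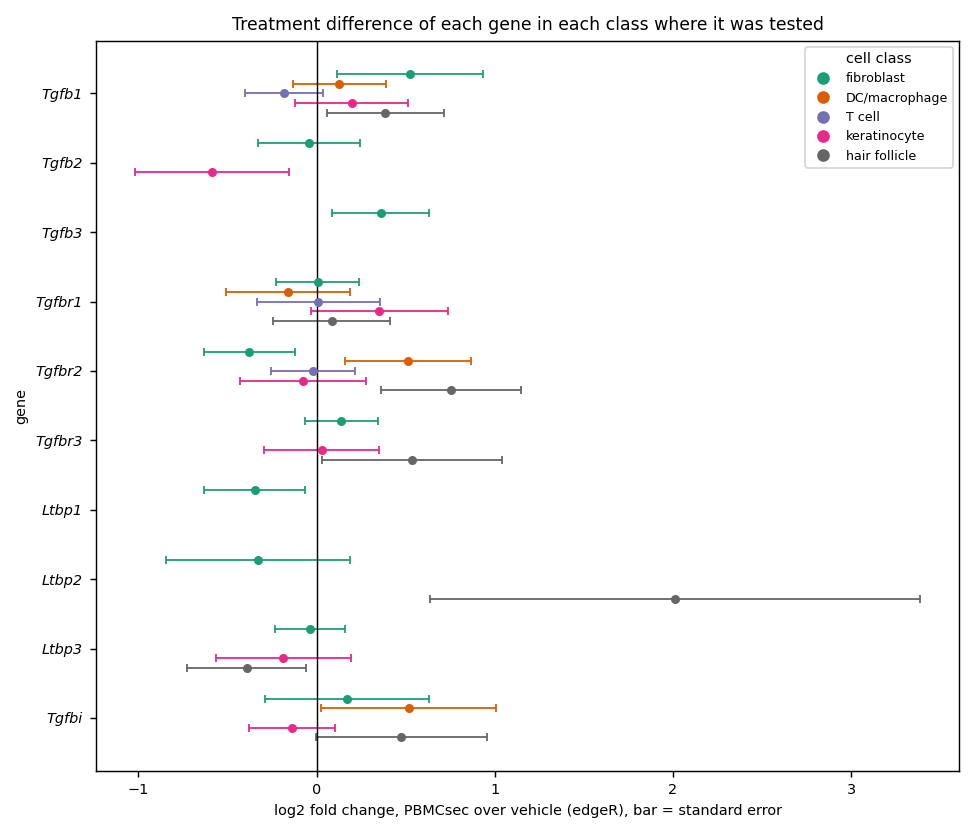
Log2 fold change of PBMCsec over vehicle (x axis) with its standard error as a bar, for each gene (rows) in each class where it passed the filter (colour). The 31 estimates lie on both sides of 0, and Ltbp2 in HFs, which rests on 1 library, is the farthest from 0 with the widest bar.

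Over the 5 classes, 31 pairs of member and class were tested, of which 18 had a log2 fold change above 0 and 13 below. By the group means of CPM, 14 were higher after PBMCsec and 17 lower, and 4 pairs differed in direction from the fit (Tgfbr1 in FBs, TCs and KCs and Tgfbr3 in KCs). The smallest unadjusted edgeR p was 0.0776. By class, the log2 fold change was above 0 for 5 of 10 members in FBs, 3 of 4 in DC/Mac and 1 of 3 in TCs. In KCs it was above 0 for 3 of 7 and in HFs for 6 of 7. The HF median was 0.475, against 0.019 over all genes tested there. Members of a class share its libraries, and these counts were not tested. Whether the treatment difference of a member was unequal between classes was tested on log2(CPM + 5) in 44 comparisons of a member between classes, and 0 had an adjusted p under 0.05 (exact permutation test over 70 labellings, smallest adjusted p = 0.838). The lowest p was that of Tgfbr2, whose treatment difference was -1.26 in FBs relative to DC/Mac (exact p = 0.0286, the smallest that 4 against 4 libraries allow, adjusted p = 0.838). The DC/Mac of vehicle library 2, 15 cells, held 8.66 CPM of it, the lowest of the 8.

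The 68 other genes of the pathway list were the latent complex and its activators, co-receptors, Smads and their regulators, extracellular modulators and target genes. In FBs 63 were tested and 0 were called in either direction (0% of all genes). At an unadjusted edgeR p under 0.05, 1 was higher (Myc) and 1 lower (Fn1), against 1.96% of all genes. The median log2 fold change of the 63 was -0.03. Over all genes tested in FBs the median was -0.001, with 4681 genes below 0 and 4655 above. By group, 7 of 12 genes of the latent complex, 3 of 6 co-receptors, 5 of 11 Smads and regulators, 1 of 4 extracellular modulators and 18 of 30 target genes had a log2 fold change below 0. Of the latent complex, Ltbp4, the latent binder of elastic fibres, had a log2 fold change of 0.21 ± 0.42, ranging between 0.035 (leaving out vehicle library 1) and 0.89 (leaving out vehicle library 4). The integrin subunits Itgb1 and Itgb5, partners in activating latent TGF-β, had -0.12 ± 0.28 and -0.14 ± 0.23 (SE), and each crossed 0 when 1 library was left out.

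The 5 pathway genes with the smallest edgeR p in FBs were Myc, Fn1, Dcn, Postn and Cdkn1a. Myc, a growth regulator that TGF-β represses in epithelial cells, had 42.2 ± 18.6 CPM after PBMCsec and 21.5 ± 3.82 CPM after vehicle (SD, n = 4 each) and a log2 fold change of 1.02 ± 0.33 (SE; edgeR, p = 0.00804, adjusted p = 1; exact permutation p = 0.0571). Fn1, fibronectin, had 4726 ± 2010 CPM after PBMCsec and 8090 ± 2200 CPM after vehicle (SD, n = 4 each) and -0.78 ± 0.35 (edgeR, p = 0.045; exact permutation p = 0.0571), ranging between -0.93 (leaving out PBMCsec library 3) and -0.50 (leaving out PBMCsec library 2). Dcn, decorin, a proteoglycan that binds TGF-β, had 13840 ± 3055 CPM after PBMCsec and 9696 ± 3081 CPM after vehicle (SD, n = 4 each) and 0.51 ± 0.26 (edgeR, p = 0.0707; exact permutation p = 0.0571), ranging between 0.31 (leaving out vehicle library 1) and 0.64 (leaving out vehicle library 4). Postn, the matrix protein periostin, had a log2 fold change of -0.40 ± 0.23 (SE), ranging between -0.56 (leaving out PBMCsec library 2) and -0.26 (leaving out PBMCsec library 4). Cdkn1a, a cell cycle inhibitor that TGF-β induces, had 0.84 ± 0.47 (SE), which was 1.55 and passed with libraries 3 and 4 of each group alone (edgeR, adjusted p = 0.0234) and -0.15 with libraries 1 and 2 alone. It ranged between 0.53 (leaving out vehicle library 4) and 1.16 (leaving out vehicle library 2). The groups overlapped in each of the 5.

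In the other classes, 26 pathway genes were tested in DC/Mac, 17 in TCs, 39 in KCs and 49 in HFs, with 0 called in each by edgeR, DESeq2 or limma, and 4, 2, 0 and 0 at an unadjusted edgeR p under 0.05 (4.34%, 2.92%, 0.995% and 2.26% of all genes). In DC/Mac these were Nrros, with a log2 fold change of 0.68 ± 0.27, Thbs1 (2.27 ± 0.94), Mmp9 (-1.75 ± 0.62) and Tsc22d1 (-0.56 ± 0.26; SE), and the groups overlapped in all 4. In TCs, Tsc22d1, a target gene of TGF-β, had 46.0 ± 13.7 CPM after PBMCsec and 102 ± 21.9 CPM after vehicle (SD, n = 4 each). Its groups did not overlap, as in 1 of 17 pathway genes tested and 2.15% of all genes. Its log2 fold change was -1.19 ± 0.28 (SE; edgeR, p = 3.178e-04, adjusted p = 0.234; exact permutation p = 0.0286). Cdkn1a had a log2 fold change of 1.03 ± 0.31 (SE; edgeR, p = 0.00316, adjusted p = 0.9995; exact permutation p = 0.0571). With the library number as a replicate block, both passed in TCs (edgeR, adjusted p = 0.0168 and 0.0381), and the members did not. The labels do not say what that number pairs. In HFs, 1 of 49 pathway genes tested had groups apart, near the 1.9% of all genes. It was Itgav, an integrin subunit that pairs with those activating latent TGF-β. Itgav had 84.7 ± 18.6 CPM after PBMCsec and 57.5 ± 8.89 CPM after vehicle (SD, n = 4 each). Its log2 fold change was 0.44 ± 0.22 (SE; edgeR, p = 0.0629; exact permutation p = 0.0286, the smallest that 4 against 4 libraries allow). These genes in DC/Mac, TCs and HFs lie outside the rule for named genes and were chosen after they were seen. Of the pathway genes tested, 15 of 26 in DC/Mac, 7 of 17 in TCs, 28 of 39 in KCs and 15 of 49 in HFs were below 0. Their median log2 fold changes were -0.050, 0.021, -0.142 and 0.240, against -0.021, -0.013, 0.005 and 0.019 over all genes tested.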

How the data were processed

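The deposited files hold, for each library, raw UMI counts of 31053 genes in its called cells, which the authors made by aligning reads to mm10 and did not normalise. The submitters' processing notes name Cell Ranger 3.0.2 and the study's methods a later version. Libraries came from a 3′ kit and dissociated skin that, per the study's methods, was sorted for viable cells, so a count reflects a gene's 3′ end and lost cell types are not seen. Cells with 500 to 4000 genes, no more than 20000 UMIs and no more than 5% mitochondrial counts were kept, following the study, and Gm42418, Gm17056 and Gm26917 were left out. Doublets were not removed, since Scrublet (scanpy 1.11.5) marked only 13 cells (0.211%) and cannot be taken to have worked.

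Cells were integrated by library and clustered in Seurat 5.3.0 (2000 variable features, 30 dimensions, resolution 1). A cluster took a class name from 3 or more markers of that class, each seen in 25% or more of its cells and 2-fold above the other cells by CPM, and stayed unnamed if its top 10 genes held more markers of another class. Names are rebuilt and may differ from the study's. Counts were summed per library and class (10 or more cells in every library) and tested with edgeR 4.0.16 (TMM, filterByExpr, robust quasi-likelihood, Benjamini-Hochberg, adjusted p under 0.05), which was first tested on simulated data. Single members also had an exact two-sided permutation test over 70 labellings, and classes were compared within libraries on log2(CPM + 5), without a test between genes. Positions and promoters come from GENCODE M21 and RefSeq on GRCm38. Upper limits of a share at 0 use 3 counts and cover counting error only.

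Alternatives were DESeq2 1.42.0 and its size factors, limma 3.58.1, no filter on low counts, a replicate block, each library left out, libraries 1 and 2 or 3 and 4 alone, a 10% mitochondrial limit, no cells of the highest doublet scores, means of log values per cell and, chosen after seeing the data, clusters named by marker count alone. Members, lists and named genes (the 10 members, with treatment values in FBs and in a class that leads; Ltbp4, Itgb1 and Itgb5; the 5 pathway genes of smallest p in FBs; the 3 genes most like each member) were chosen with earlier results of these data known. The labels do not say what the library numbers pair. Same-numbered libraries deviated together in TCs with correlations of 0.32, 0.2, 0.18 and 0.4. In DC/Mac these were 0.32, 0.09, 0.28 and 0.28, and in FBs, KCs and HFs they ran from -0.05 to 0.44. No correlation of differently numbered libraries is given beside them, so a pairing was not established in any class.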

Additional observations from a re-analysis of the deposited data

Results flagged for a closer look

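In groups of 4 libraries, 1 library stood far from the other 3 in 4 of 62 groups examined, by Dixon's ratio at its 95% critical value. Chance alone flags about 1 in 20 groups. Tgfb1 in DC/Mac was 283 CPM in PBMCsec library 2, from 91 UMIs in 34 cells, against 144 to 155 CPM in the other PBMCsec libraries. Tgfbr2 in KCs was 65.4 CPM in PBMCsec library 1, from 75 UMIs in 96 cells, against 34.1 to 39.4 CPM. Ltbp2 in HFs was 146 CPM in PBMCsec library 2, from 38 UMIs in 32 cells, against 2.7 to 14.9 CPM. Tgfbi in HFs was 161 CPM in vehicle library 2, from 51 UMIs in 34 cells, against 44.4 to 55.2 CPM. PBMCsec library 2 and vehicle library 2 were also among the smallest libraries, with 313 and 208 cells. The part of library size in these values was not tested.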

How the results depend on the processing

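No member was called in any of the 5 classes under any alternative run. Of 398 alternative log2 fold changes of the 21 named results, 367 kept their direction and side of the threshold, 30 changed direction and 1 passed the threshold (Cdkn1a in FBs with libraries 3 and 4 alone). Leaving out each library in turn, the log2 fold change in FBs ranged from -0.27 to 0.14 for Tgfb2, -0.086 to 0.21 for Tgfbr1, -0.11 to 0.049 for Ltbp3, -0.16 to 0.49 for Tgfbi, -0.34 to 0.12 for Itgb1 and -0.26 to 0.074 for Itgb5, each across 0. With libraries 3 and 4 alone the direction changed in FBs for Tgfb1 (-0.30), Tgfb2 (0.076), Tgfbr3 (-0.049), Ltbp1 (0.10), Ltbp2 (0.019), Tgfbi (-0.092) and Ltbp4 (-0.23), and in TCs for Tgfb1 (0.19). With libraries 1 and 2 alone it changed in FBs for Tgfbr1 (-0.16) and Cdkn1a (-0.15). Tgfbr1, at 0.005, also turned without the highest doublet scores (-0.057), with means of log values per cell (-0.001) and under a naming of clusters chosen after seeing the data (-0.015), in which the 3 clusters left unnamed for a marker of another class went to the class with most of their markers. Itgb5 turned with means of log values per cell (0.019). The causes were not tested. At this depth a log2 fold change of 1.02 ± 0.33 (Myc in FBs) was not called. Borders of clusters, and with them the cells of a class, moved with the numerical library used for the clustering.

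The count of all genes called was 0 in FBs, 4 with libraries 1 and 2 alone and 4 with libraries 3 and 4 alone, 1 of the latter a pathway gene (Cdkn1a). In DC/Mac it was 2, and 6 by DESeq2, 0 by limma, 59 without the filter, 14 with libraries 1 and 2 alone, 1 with libraries 3 and 4 alone, 1 at a 10% mitochondrial limit, 0 with means of log values, and 0 to 4 without each library in turn. In TCs it was 0, and 3 by DESeq2, 11 without the filter, 3 with libraries 1 and 2 alone and 0 to 2 without each library. In KCs it was 0, and 5 by DESeq2, 2 without the filter, 3 with libraries 1 and 2 alone and 0 to 4 without each library. In HFs it was 0, and 2 with libraries 3 and 4 alone and 0 to 5 without each library. Of the pathway genes in DC/Mac, 1 was called without the filter (Mmp9) and 1 with libraries 1 and 2 alone (Thbs1), against 0 in the main test. Of the pairs of neighbouring classes 0 of 50 passed, 15 of 40 with ECs left out and all other cells kept, an alternative chosen after seeing the data, and 16 of 40 without the highest doublet scores, where ECs also dropped out.

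With the replicate block, 8 genes were called in DC/Mac, 3 in HFs, 14 in TCs and 0 in FBs and KCs, and 2 of the 17 pathway genes in TCs. The block changed no call of a member, and Tgfbr1 in FBs stood at -0.005 with it. In every class the libraries are known to share only a number. Same-numbered libraries had correlations from 0.18 to 0.4 in TCs and from -0.05 to 0.44 in the other classes.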
